A study of Mus musculus with 8 samples.

Results

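The genes described here code for proteins of the synapse: components of the synaptic vesicle and its release machinery on the presynaptic side, and scaffolds, adhesion proteins and a kinase of the postsynaptic density. They were chosen as the entries of the gene table whose listed symbol matched 1 of 47 symbols. All 47 were found among the 43346 genes of the table, in 48 entries, because Pclo is listed under 2 identifiers. Of the entries, 30 (29 symbols) are presynaptic and 18 postsynaptic. Gene expression was measured by sequencing of total RNA from cortex and hippocampus taken at an age of 1.5 months. The GFP group expressed green fluorescent protein and the GFP-GR100 group expressed the same protein fused to a chain of glycine-arginine repeats (GR100), both from adeno-associated virus vector plasmids. Each group had 4 animals, 2 females (libraries 1 and 2) and 2 males (libraries 3 and 4), with 1 library per animal. Such chains, called poly(GR), are translated from the C9orf72 repeat whose expansion causes frontotemporal dementia and amyotrophic lateral sclerosis. For the strain, the promoter of the vector and the route and age of delivery nothing is given in the sources used here.

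At a chemical synapse, vesicles filled with transmitter by membrane transporters are held at the active zone by large scaffold proteins. They fuse with the plasma membrane when calcium binds a synaptotagmin and the SNARE proteins of the vesicle and the membrane zip together. Across the cleft, neuroligins bind presynaptic neurexins, and membrane-associated guanylate kinases such as PSD-95 anchor glutamate receptors to deeper Shank and Homer scaffolds. In cortex and hippocampus most synapses are excitatory and use the vesicular glutamate transporter VGLUT1, coded by Slc17a7, whereas projections from the thalamus mainly use VGLUT2, coded by Slc17a6.

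Libraries held between 65880460 and 89113010 counts in all. Values are given in CPM, a gene's counts scaled to a common library total, and the floor of 3 counts was 0.0337 to 0.0455 CPM. The 48 entries held between 1.86% and 2.43% of all counts, and all 48 passed the filter on low counts. Forebrain markers (Neurod6, Tbr1 and Prox1 summed) were present in all libraries at 121.6 to 201.0 CPM. The library GFP-GR100 4 stood apart from the others in markers of the thalamus, whose 10 genes summed to 265.9 CPM against 96.9 to 168.5 CPM in the other 7 libraries. The count of negative changes, the median change of each side over both sexes, and the genes in which it lay farthest from its group are given with and without it. Counts at an unadjusted p, of groups that did not overlap and of the sex by group term include it.

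The sequence just upstream of 4 members is shown first, since the VGLUT1 and VGLUT2 genes moved apart in 1 library and Syn1 and Unc13a carry elements of the neuron-restrictive silencer site RE1. The windows are from RefSeq on GRCm38.p6, 5′ to 3′, and 35 of the 47 symbols had a window (250 bases before to 50 after a start). Capitals mark the RE1 block TTCAGCACC and the cAMP response element TGACGTCA in Syn1 (chrX:20920919-20921168, minus strand), and the GC box core CCGCCC or its reverse complement in Slc17a7 (chr7:45163671-45163920, plus strand) and Slc17a6 (chr7:51621580-51621829, plus strand). In the short stretch of Unc13a, which begins just after the start (chr8:71671727-71671752, minus strand), capitals mark the reverse complements of the RE1 blocks GGACAGCGC and TTCAGCACC.
Syn1: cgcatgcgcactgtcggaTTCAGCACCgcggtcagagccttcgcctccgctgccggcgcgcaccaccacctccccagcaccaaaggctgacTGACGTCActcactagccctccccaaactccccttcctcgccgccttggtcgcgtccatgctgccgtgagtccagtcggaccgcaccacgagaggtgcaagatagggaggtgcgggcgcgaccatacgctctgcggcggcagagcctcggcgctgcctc
Slc17a7: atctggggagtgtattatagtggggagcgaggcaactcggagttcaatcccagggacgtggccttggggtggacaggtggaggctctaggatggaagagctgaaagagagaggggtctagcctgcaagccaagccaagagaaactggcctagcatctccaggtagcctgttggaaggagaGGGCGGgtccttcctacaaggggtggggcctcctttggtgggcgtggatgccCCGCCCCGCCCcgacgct
Slc17a6: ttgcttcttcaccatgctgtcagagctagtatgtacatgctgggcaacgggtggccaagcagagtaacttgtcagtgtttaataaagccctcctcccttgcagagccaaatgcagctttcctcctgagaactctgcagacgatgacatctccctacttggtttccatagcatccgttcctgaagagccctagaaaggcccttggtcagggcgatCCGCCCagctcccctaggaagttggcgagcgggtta
Unc13a: GCGCTGTCCgcgcccccGGTGCTGAA

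On either strand, TTCAGCACC was found in the windows of 3 of 35 members (8.57%; Nlgn1, Syn1 and Unc13a) and of 0.433% of 27025 genes. GGACAGCGC was found in 1 of 35 (2.86%; Unc13a) and 0.477% of all genes, and TGACGTCA in 1 of 35 (2.86%; Syn1) and 2.03% of all genes. CCGCCC was found in 28 of 35 members and 38.2% of all genes. None of the 4 motifs contains another. The 35 members had 56 windows and the 27025 genes had 32851, so members had more windows per gene in which a match could occur. The shares of genes are therefore not strictly like for like. A match describes the letters of the window only.

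No synaptic entry was called higher or lower in GFP-GR100 than in GFP at an adjusted p under 0.05 by edgeR's quasi-likelihood test, among 20987 genes of which 2.52% were called. DESeq2 called 0 of the 48 (4.4% of all genes) and limma-voom 0 (2.65% of all genes). At an unadjusted p under 0.05, edgeR gave 4 entries higher (the second Pclo entry, Shank3, Bsn and Shank1; 8.23% of all genes) and 2 lower (Sv2b and Dlg1; 7.37% of all genes). The groups did not overlap in 1 of 48 entries (2.08%), the second Pclo entry, against 8.06% of all genes. The fitted log2 fold change was negative in 40 of 48 entries, beside 54.6% of all genes, and ran from -0.34 (Sv2b) to 0.39 (Bsn). With libraries scaled to pan-neuronal markers in place of all genes it was negative in 16 of 48 (28.6% of all genes), without GFP 4 in 29 of 48 (49.1%) and without GFP-GR100 4 in 34 of 48 (56.7%). The smallest adjusted p was 0.195.

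How narrow the estimates were can be read from their intervals. The median standard error (SE) was 0.10 on the log2 scale. The 95% interval of the fold change lay within 2-fold either way for every one of the 48 entries and within 1.5-fold for 44, among them all 18 postsynaptic entries and 26 of 30 presynaptic ones. The exceptions were Sv2b, Slc17a6, Bsn and the second Pclo entry. Intervals of this width leave room for changes of the size fitted here, so a missed threshold does not show equal expression.

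**Figure D1:**
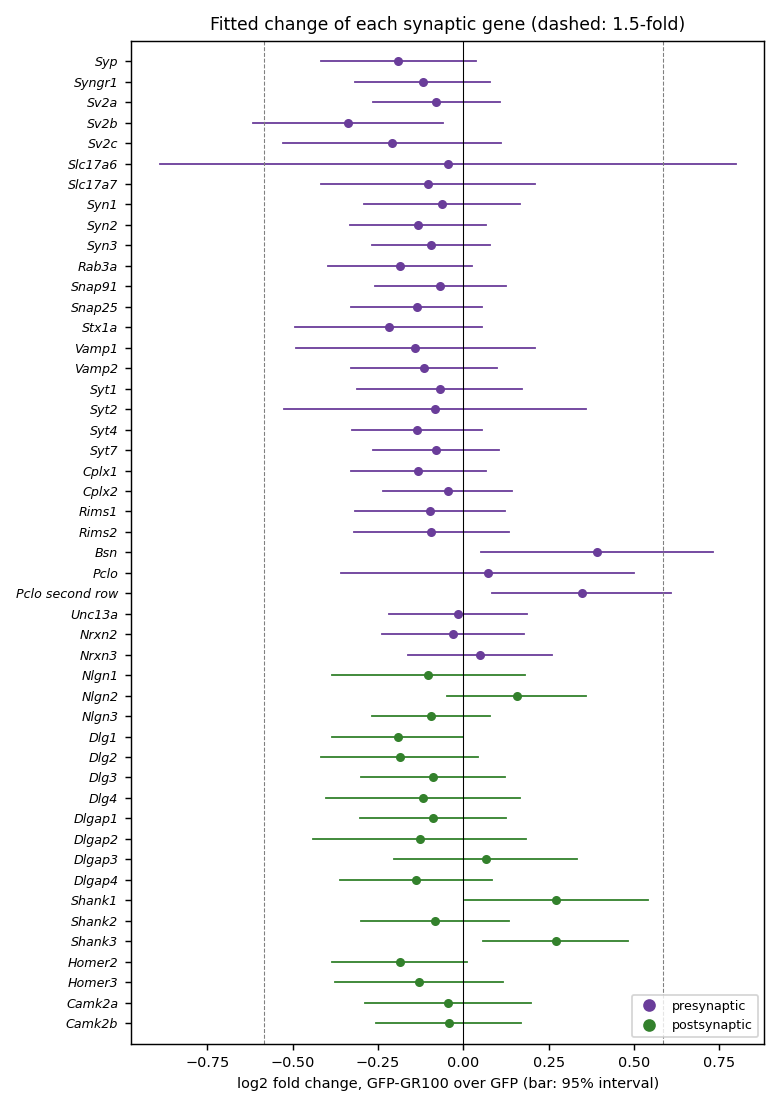
Fitted log2 fold change (x axis, positive where GFP-GR100 is higher) for each of the 48 synaptic entries (y axis), with 95% intervals as bars and dashed lines at 1.5-fold. Under this scaling 40 of 48 points sit left of 0, between -0.34 for Sv2b and 0.39 for Bsn (16 of 48 when scaled to pan-neuronal markers), and the bar of Slc17a6 is the widest.

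The tissue taken from GFP-GR100 mice weighed less. Cortex and hippocampus weighed 115.8, 119.1, 111.4 and 126.6 mg in the GFP animals (1 to 4) and 76.7, 74.1, 71.9 and 85.1 mg in the GFP-GR100 animals. Every GFP-GR100 weight lay below every GFP weight. The mean fell by 41.3 mg, or 34.9% (76.95 ± 5.78 against 118.2 ± 6.41 mg, SD, n = 4 each; two-sided exact permutation p = 0.0286, the smallest that 70 assignments can give).

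Beside this loss, the presynaptic and postsynaptic entries had nearly the same median log2 fold change. The median was -0.09 over the 30 presynaptic entries and -0.09 over the 18 postsynaptic ones, a difference of -0.002, beside -0.02 over all genes tested. When libraries were scaled to 18 pan-neuronal markers instead of all genes, the median of all genes moved up by 0.12, and the medians became 0.03 on each side. Relative to the median of all genes they were -0.07 on each side under either scaling, since a change of scaling moves all genes nearly alike. On that relative scale they were -0.03 (presynaptic) and -0.004 (postsynaptic) without GFP 4. Without GFP-GR100 4 they were -0.04 and -0.02. Without GFP 4 the medians were -0.03 (presynaptic) and -0.0003 (postsynaptic), without GFP-GR100 4 they were -0.07 and -0.05, and without GFP 3 and GFP-GR100 4 together -0.06 and -0.03. The ratio of the mean weights was -0.62 on the log2 scale. CPM give each gene's share of a library and not its amount per brain. The weight ratio and these medians are therefore set side by side and not tested against each other. In bulk tissue, fewer cells of a type and less RNA per cell cannot be told apart.

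By library, the mean log2 CPM of the presynaptic entries relative to the GFP mean was 0.08, 0.07, -0.15 and 0.01 for the GFP libraries, and for the GFP-GR100 libraries -0.01, 0.02, -0.16 and -0.15. For the postsynaptic entries it was 0.08, 0.12, -0.18 and -0.03 in GFP and 0.07, 0.17, -0.17 and -0.25 in GFP-GR100. The groups overlapped on both sides of the synapse, and the lowest values of either group came from males. GFP-GR100 4, the heaviest of its group at 85.1 mg, had the lowest postsynaptic mean. The presynaptic mean minus the postsynaptic mean ran from -0.06 to 0.04 in GFP and from -0.15 to 0.10 in GFP-GR100.

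**Figure D2:**
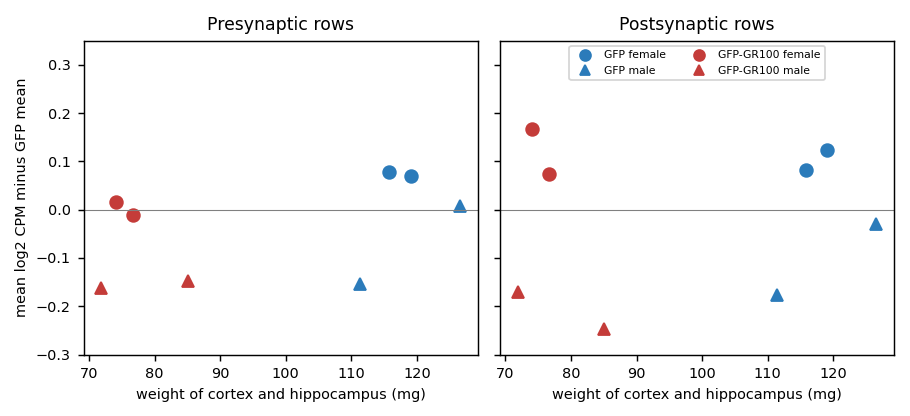
Mean log2 CPM relative to the GFP mean (y axis) against the weight of cortex and hippocampus in mg (x axis), 1 point per animal, presynaptic entries at left and postsynaptic entries at right. GFP-GR100 animals (71.9 to 85.1 mg) and GFP animals (111.4 to 126.6 mg) are separated in weight but overlap in height, and in each group the males lie below the females.

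Levels between genes are compared in RPKM, the deposited values scaled both for library total and for listed transcript length. In GFP libraries the highest mean levels were those of Slc17a7 (373 ± 46.3 RPKM, SD, n = 4), Snap25, a SNARE protein of the plasma membrane (338 ± 14.1 RPKM), Camk2a, a calcium-dependent kinase subunit (312 ± 19.8 RPKM), and Syp, the vesicle protein synaptophysin (285 ± 41.0 RPKM). Neighbours in this order differed by less than 2 SD of the more variable of the pair. The lowest were the adhesion gene Nlgn1 (4.36 ± 0.991 RPKM), Sv2c (4.74 ± 1.41 RPKM) and Syn3 (4.91 ± 0.287 RPKM), which did not differ beyond their spread. In GFP-GR100 the order at the top was again Slc17a7 (366 ± 79.0), Snap25 (322 ± 15.4) and Camk2a (321 ± 73.1 RPKM), the last pair within their spread.

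Among the vesicle membrane genes none was called, and all 7 fitted log2 fold changes were negative (median -0.12), though 3 of 7 were with pan-neuronal scaling. Without GFP 4 the median was -0.04. Sv2b, a vesicle glycoprotein (7:75114897-75309262 on mm10), was at 553, 459, 368 and 474 CPM in GFP and 432, 419, 369 and 257 CPM in GFP-GR100. GFP-GR100 4 was the lowest, and the groups overlapped because GFP 3 lay within the GFP-GR100 range. The log2 fold change was -0.34 (SE 0.13, 95% interval -0.61 to -0.06, edgeR adjusted p = 0.233). It was -0.23 without GFP-GR100 4 (edgeR adjusted p = 0.419) and -0.21 without GFP 4. Syp was at 1321, 1450, 1676 and 1618 CPM in GFP and 1450, 1354, 1307 and 1193 CPM in GFP-GR100, with a log2 fold change of -0.19 (SE 0.10).

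The transporters that load glutamate differed in how GFP-GR100 4 sat. Slc17a7 was at 1034, 1036, 1172 and 1242 CPM in GFP and 1136, 1254, 1060 and 749 CPM in GFP-GR100. Its log2 fold change was -0.10, and 0.05 without GFP-GR100 4. Slc17a6 was at 33.6, 32.2, 34.6 and 33.1 CPM in GFP and 25.4, 22.0, 23.4 and 64.6 CPM in GFP-GR100. Thus 3 GFP-GR100 libraries lay below all GFP libraries for VGLUT2 and the fourth lay above them all, while for VGLUT1 the same library was the lowest of 8. The ratio of Slc17a7 to Slc17a6 in RPKM was 45.2 to 55.2 in GFP, 65.6 to 83.8 in GFP-GR100 1 to 3 and 17.0 in GFP-GR100 4.

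Over all 8 libraries Slc17a6 had a log2 fold change of -0.05 (SE 0.35, 95% interval -0.89 to 0.80, edgeR adjusted p = 0.960). Without GFP-GR100 4 it was called lower, with a log2 fold change of -0.50 (edgeR adjusted p = 0.0079; 0.312% of all genes were called lower), and without GFP 3 as well it was -0.45 (adjusted p = 0.0089; 0.548% called lower). Thalamus markers summed to 265.9 CPM in GFP-GR100 4, against 96.9 to 148.0 CPM in GFP-GR100 1 to 3 and 114.4 to 168.5 CPM in GFP, and none of the 10 was at 0. Forebrain markers were at 121.6 CPM in the same library, against 160.0 to 201.0 CPM in the others. The part of these markers in the Slc17a6 result was not tested.

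Of the synapsins, which tether vesicles to the cytoskeleton, and the vesicle-cycle genes Rab3a and Snap91, none was called, and all 5 log2 fold changes were negative (median -0.09), against 2 of 5 with pan-neuronal scaling. Without GFP-GR100 1 the median was -0.04, and without GFP 4 it was -0.07, with 3 of 5 negative. Rab3a, the small GTPase of the vesicle, was at 414, 435, 559 and 512 CPM in GFP and 434, 405, 444 and 394 CPM in GFP-GR100. The groups overlapped, and the log2 fold change was -0.19 (SE 0.10, edgeR adjusted p = 0.371). Syn1, Syn2, Syn3 and Snap91 had log2 fold changes of -0.06 to -0.13.

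In the SNARE and calcium sensor group none was called, and all 10 log2 fold changes were negative (median -0.12), against 5 of 10 with pan-neuronal scaling. The median was -0.08 without GFP 4, with 9 of 10 negative. Snap25 was at 2393, 2278, 2309 and 2416 CPM in GFP and 2170, 2082, 2288 and 2011 CPM in GFP-GR100, with a log2 fold change of -0.14 (SE 0.09, edgeR adjusted p = 0.471). Stx1a, the syntaxin of the plasma membrane, was at 239, 243, 272 and 302 CPM in GFP and 247, 247, 240 and 174 CPM in GFP-GR100 (log2 fold change -0.22, SE 0.13; -0.08 without GFP-GR100 4 and -0.11 without GFP 4). Both overlapped between groups, Snap25 only through GFP-GR100 3 and Stx1a through all but GFP-GR100 4.

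Vamp1 and Vamp2 are alternative SNAREs of the vesicle, and Syt1 and Syt2 alternative calcium sensors. The first and last of these 4 followed Slc17a6 in GFP-GR100 4. Vamp1 was at 134, 144, 158 and 156 CPM in GFP and 112, 117, 112 and 202 CPM in GFP-GR100, so that 3 GFP-GR100 libraries were below all GFP libraries and the last above them. Its log2 fold change was -0.14 (SE 0.16) with all libraries and -0.37 without GFP-GR100 4, where it was called lower by edgeR (adjusted p = 0.0499); without GFP 3 as well it was not called. Syt2 was at 73.7, 92.4, 60.6 and 67.4 CPM in GFP and 67.6, 63.0, 51.3 and 93.9 CPM in GFP-GR100, with overlapping groups. Its log2 fold change was -0.08 (SE 0.19) and -0.34 without GFP-GR100 4, and it turned positive without GFP 2, GFP-GR100 2 or GFP-GR100 3 (up to 0.04). Their more abundant partners were lower in that library: Vamp2 was at 816 CPM there against 896 to 935 CPM in the other GFP-GR100 libraries, and Syt1 at 978 against 1272 to 1333 CPM. The complexins, Cplx1 and Cplx2, which clamp the SNARE complex, had log2 fold changes of -0.13 and -0.05, and Syt4 and Syt7 of -0.14 and -0.08.

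**Figure D3:**
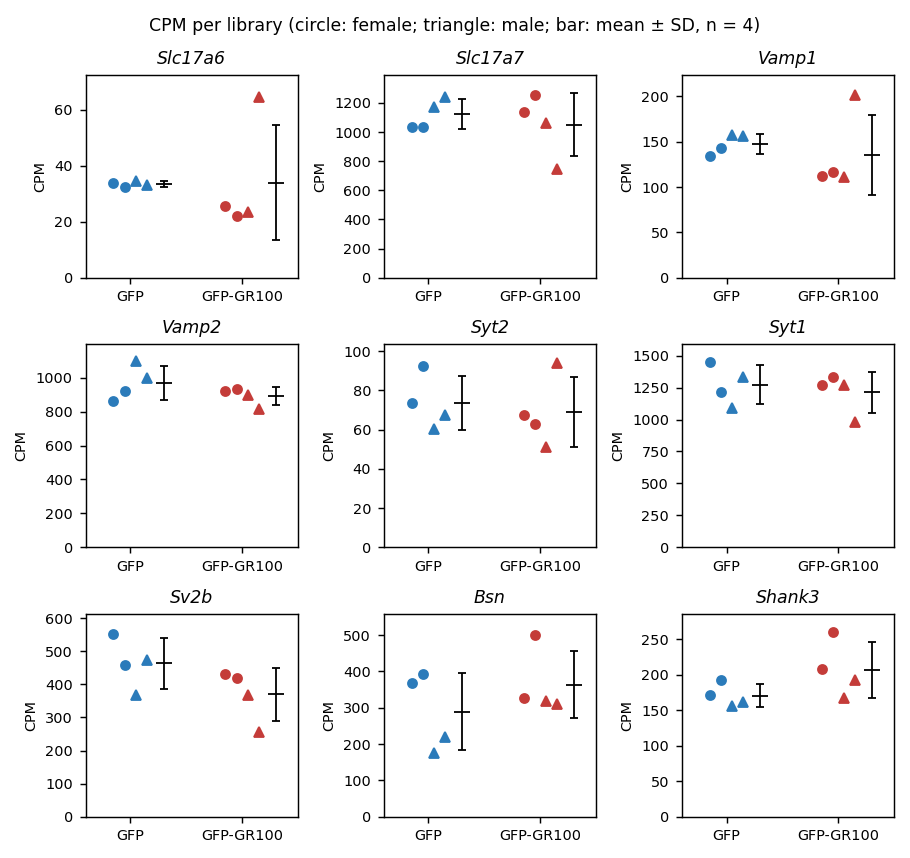
CPM (y axes from 0) of 9 members in each library of the GFP and GFP-GR100 groups, circles for females and triangles for males, with mean ± SD (n = 4) as bars. The GFP-GR100 male at 64.6 CPM for Slc17a6 and 202 CPM for Vamp1 stands above all other libraries and is the lowest for Slc17a7, Vamp2, Syt1 and Sv2b.

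The active zone genes had a median log2 fold change of 0.03 over 6 entries, 3 of them positive (6 of 6 with pan-neuronal scaling), and with the filter on low counts and all libraries none was called. The median was -0.05 without GFP 3 and GFP-GR100 4, and 0.12 without GFP 4. Bsn, the giant scaffold bassoon (9:108096022-108190384), was at 367, 392, 176 and 220 CPM in GFP and 326, 501, 318 and 309 CPM in GFP-GR100. Its groups overlapped: GFP females lay within the GFP-GR100 range and GFP males below it. The log2 fold change was 0.39 (SE 0.15, 95% interval 0.05 to 0.73, edgeR adjusted p = 0.257). It was called higher when no filter on low counts was used (0.41, adjusted p = 0.0057; 3.64% of all genes called higher) and without GFP-GR100 1 (0.58, adjusted p = 0.0169; 2.33% called higher).

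Piccolo, the partner of bassoon, is coded by Pclo, listed under 2 identifiers on chromosome 5. The long entry (14514918 to 14860184) was at 335, 255, 114 and 173 CPM in GFP and 226, 250, 203 and 190 CPM in GFP-GR100, with a log2 fold change of 0.07 (SE 0.19). The second entry (14861407 to 14863459), just downstream, was at 10.9, 12.3, 11.2 and 11.4 CPM in GFP and 12.4, 12.3, 15.4 and 18.9 CPM in GFP-GR100. All 4 GFP-GR100 libraries lay above all GFP libraries there, by a narrow margin in the females. Its log2 fold change was 0.35 (SE 0.12, edgeR adjusted p = 0.195), and 0.24 without GFP-GR100 4, its highest library. How reads were shared between the 2 entries is given by none of the sources used here.

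Rims1, which links vesicles to calcium channels, was at 274, 239, 164 and 219 CPM in GFP and 223, 238, 188 and 184 CPM in GFP-GR100 (log2 fold change -0.10, SE 0.10), with overlapping groups. Rims2 and the priming factor Unc13a had log2 fold changes of -0.09 and -0.02.

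The adhesion genes that bridge the cleft had a median log2 fold change of -0.03 over 5 entries (3 negative, and 0 of 5 with pan-neuronal scaling). The median was 0.03 without GFP 4 and 0.01 without GFP-GR100 4. Nlgn2, the neuroligin of inhibitory synapses, was at 226, 263, 230 and 216 CPM in GFP and 281, 317, 229 and 223 CPM in GFP-GR100. Only the GFP-GR100 females exceeded the GFP range, and the log2 fold change was 0.16 (SE 0.09, edgeR adjusted p = 0.435). Nlgn1, found at excitatory synapses, was at 82.3, 60.7, 43.01 and 55.7 CPM in GFP and 58.4, 59.0, 57.4 and 46.7 CPM in GFP-GR100, with overlapping groups. Its log2 fold change was -0.10, and -0.08 without GFP-GR100 4. Nrxn2, Nrxn3 and Nlgn3 had log2 fold changes of -0.03, 0.05 and -0.09.

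None of the membrane-associated guanylate kinase genes was called, and all 4 log2 fold changes were negative (median -0.15), against 2 of 4 with pan-neuronal scaling. The median was -0.07 without GFP 4 and -0.10 without GFP-GR100 4. Dlg1, coding for SAP97, was at 190, 169, 140 and 167 CPM in GFP and 154, 145, 143 and 139 CPM in GFP-GR100. Its groups overlapped only through GFP 3, and the log2 fold change was -0.19 (SE 0.09, edgeR adjusted p = 0.318). Dlg4, coding for PSD-95, was at 698, 803, 968 and 878 CPM in GFP and 886, 863, 696 and 651 CPM in GFP-GR100. Here GFP 3, a male, was the highest and the GFP-GR100 males the lowest, and the groups overlapped; the log2 fold change over both sexes was -0.12 (SE 0.13).

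The postsynaptic scaffolds had 3 positive and 6 negative log2 fold changes, with a median of -0.09, and none was called. With pan-neuronal scaling 5 were positive, and without GFP 4 the median was 0.04, also with 5 positive. Shank3 (15:89499623-89560261), a master scaffold of the density, was at 172, 192, 156 and 161 CPM in GFP and 207, 259, 167 and 193 CPM in GFP-GR100 (log2 fold change 0.27, SE 0.10, edgeR adjusted p = 0.213). Shank1 was at 318, 421, 265 and 252 CPM in GFP and 369, 526, 291 and 331 CPM in GFP-GR100 (log2 fold change 0.27, SE 0.12, adjusted p = 0.310). In both genes the highest library was GFP-GR100 2, and the groups overlapped. Shank2 was at -0.08 on the same scale. Dlgap3, which ties PSD-95 to Shank, was at 265, 313, 350 and 317 CPM in GFP and 349, 396, 279 and 289 CPM in GFP-GR100, and Dlgap1, Dlgap2 and Dlgap4 had log2 fold changes of -0.09, -0.13 and -0.14. Homer2 and Homer3, which couple Shank to metabotropic receptors, were at -0.19 and -0.13.

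The kinase subunits, Camk2a and Camk2b, had the smallest median fitted difference of the role classes without regard to sign (0.04 on the log2 scale). Camk2a was at 2313, 2534, 2306 and 2371 CPM in GFP and 2477, 2975, 2022 and 1884 CPM in GFP-GR100. Camk2b was at 825, 921, 793 and 860 CPM in GFP and 935, 888, 820 and 672 CPM in GFP-GR100. The GFP-GR100 values spread wider than the GFP values and lay on both sides of them, and the log2 fold changes were -0.05 (SE 0.11) and -0.04 (SE 0.10), turning to 0.08 for each with pan-neuronal scaling and to 0.02 and 0.03 without GFP-GR100 4; without GFP 4 both were 0.03.

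**Figure D4:**
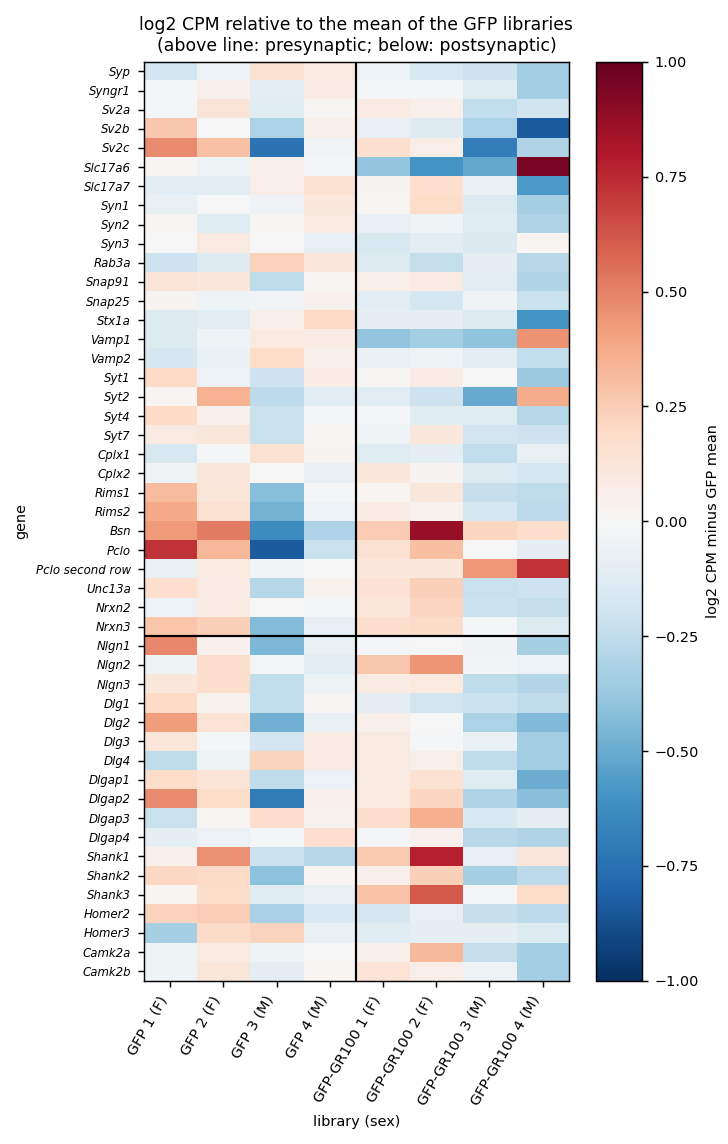
Log2 CPM of each synaptic entry in each of the 8 libraries relative to the mean of the 4 GFP libraries, entries grouped by side and role. The column of GFP-GR100 4 has the highest cell of Slc17a6 and the lowest postsynaptic mean (-0.25), and the column of GFP 3 has the lowest cells of the long Pclo entry and Bsn.

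Females and males differed in where their values lay. The median log2 fold change was -0.03 in females and -0.11 in males for presynaptic entries, and -0.03 and -0.13 for postsynaptic entries, beside -0.04 and 0.003 for all genes. When the group effect was allowed to differ by sex, 0 of 48 entries were called by edgeR (0.0524% of all genes were), and 14 had an unadjusted p under 0.05, beside 16.4% of all genes, 11 of them with the lower log2 fold change in males, beside 7.06% of all genes with that p and direction. The smallest adjusted p was that of Dlg4 (0.104), whose log2 fold change was 0.22 in females and -0.45 in males, a male minus female difference of -0.68. In the same direction followed Slc17a7 (-0.62), Dlgap3 (-0.60), Stx1a (-0.51) and Dlgap4 (-0.47). In the opposite direction the largest differences were those of Slc17a6 (0.85), the long Pclo entry (0.76) and Bsn (0.54). DESeq2 called 2 entries, Dlg4 and Dlgap3 (2.7% of all genes), edgeR without GFP 4 called 2, Dlg4 and the long Pclo entry (2.06%), and edgeR without GFP-GR100 3 called 6 (3.9%). Each sex and group held 2 animals, and in GFP-GR100 1 of the 2 males is the library with high thalamus markers. With GFP 4 or GFP-GR100 3 left out, the males of that group are down to 1 animal. The calls from those fits are therefore not read as a sex difference. The share of counts at the ribosomal RNA locus Yam1, given below, also differed between sexes in opposite directions in GFP and GFP-GR100. Its part in the sex by group term was not tested.

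Transcript length moved with the difference between sexes in the control group. Across the 48 entries, the female minus male difference of log2 CPM had a Pearson r of 0.60 with log2 listed length in GFP and 0.27 in GFP-GR100, and over all genes r was 0.17 in GFP. These are descriptions across genes, which share the same 4 libraries. Females lay above males on average in 33 of 48 entries in GFP and 42 of 48 in GFP-GR100. The share over all genes was not computed for these counts, nor the r over all genes in GFP-GR100. They therefore describe the 48 entries and do not show a trait particular to synaptic genes. Bsn and the long Pclo entry, the longest at 15938 and 19182 bases besides Dlgap1 at 16992, showed it most: in GFP the females had 255 to 335 CPM of Pclo and the males 114 to 173. The share of counts at the ribosomal RNA locus Yam1 was 6.94, 3.97, 2.31 and 2.11% in GFP and 1.87, 1.58, 5.20 and 5.82% in GFP-GR100, so it was high in females of 1 group and males of the other. Its part in the length relation and in the sex by group term was not tested. The group log2 fold change had an r of 0.18 with length.

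**Figure D5:**
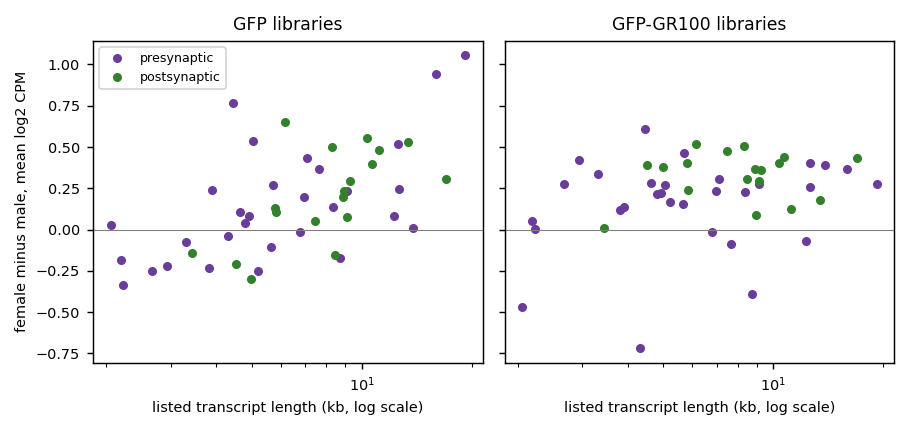
Female minus male difference of mean log2 CPM (y axis) against listed transcript length in kb (log x axis) for the 48 entries, GFP at left and GFP-GR100 at right. In GFP the points climb with length to the long Pclo entry at upper right (r = 0.60), and in GFP-GR100 they do so less (r = 0.27), with Slc17a6 the lowest point.

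Other genes of the same pathway were read from separate lists. Of 48 further presynaptic genes 0 were called, beside 2.52% of all genes. In 42 the log2 fold change was negative, beside 54.6% of all genes, with a median of -0.13. The smallest p was that of Syt17, at 31.0 ± 2.53 CPM in GFP and 25.5 ± 3.16 in GFP-GR100 (SD, n = 4, edgeR adjusted p = 0.190). Of 40 further postsynaptic genes 0 were called (26 negative, median -0.07), with Lrrtm3, a synaptic adhesion protein, at 54.6 ± 6.04 and 42.0 ± 5.80 CPM (edgeR adjusted p = 0.124). At an unadjusted p under 0.05, 6 of the first list and 3 of the second were lower, beside 7.37% of all genes. In both lists 0 were higher, beside 8.23%, and DESeq2 called 0 in each, beside 4.4%. With no filter edgeR called 1 in each list lower (Syt12 and Lrrtm3), beside 1.12% of all genes. Without GFP 3 and GFP-GR100 4 it called 1 presynaptic gene lower (Unc13c), beside 0.548%. Adding the Yam1 share to the model gave 1 lower (Syt12), beside 1.1%. Among 18 pan-neuronal markers 0 were called by edgeR or DESeq2. In 14 of them the log2 fold change was negative, with a median of -0.14, beside -0.09 over the 48 synaptic entries. At an unadjusted p under 0.05, 6 were lower, beside 7.37% of all genes, and 0 higher. Tubb3 had the smallest p, at 367 ± 50.9 and 289 ± 30.8 CPM (edgeR adjusted p = 0.174). Tubb3 was called lower by edgeR with the Yam1 share in the model. Their summed level was 9227 to 9617 CPM in GFP and 8467 to 9151 CPM in GFP-GR100, without overlap.

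Markers of other cells were measured beside the synaptic genes. Of 10 microglia markers 8 were called higher by edgeR, beside 2.19% of all genes. Among them were Trem2 (14.5 ± 2.69 CPM in GFP and 38.7 ± 3.96 in GFP-GR100, edgeR adjusted p = 2.48e-05), Cx3cr1 (47.2 ± 4.91 and 73.4 ± 3.25 CPM) and C1qa (47.8 ± 16.9 and 103 ± 8.99 CPM). The 10 markers summed to 410 to 598 CPM in GFP and 742 to 845 CPM in GFP-GR100. Of 10 choroid plexus markers 2 were called lower by edgeR (0.324% of all genes) and 8 by DESeq2 (0.953%). The 2 were Folr1 (2.12 ± 0.975 CPM in GFP and 0.439 ± 0.158 in GFP-GR100) and Cldn2 (1.96 ± 0.953 and 0.336 ± 0.135 CPM). The 10 markers summed to 131 to 372 CPM in GFP and 34.2 to 91.0 CPM in GFP-GR100. Astrocyte (0 of 10), oligodendrocyte (0 of 10), thalamus (0 of 10) and striatum markers (0 of 9) were not called by edgeR. At an unadjusted p under 0.05, 2 astrocyte markers were higher and 1 lower. By the same limit 4 oligodendrocyte markers were lower, 1 striatum marker higher and 0 thalamus markers either. Over all genes 8.23% were higher and 7.37% lower by that limit. The smallest p in each list was that of Sox9 (edgeR adjusted p = 0.144), Mog (0.0843), Ramp3 (0.437) and Adora2a (0.224), with log2 fold changes of 0.29, -0.37, -0.15 and 0.27. DESeq2 called 2 oligodendrocyte markers lower (0.953% of all genes). Summed levels were 4028 to 4868 and 4113 to 5122 CPM for astrocytes, 6415 to 8406 and 5304 to 8268 CPM for oligodendrocytes, and 1357 to 1449 and 1323 to 1731 CPM for striatum. No listed marker was at 0 in every library, and the part of these cell types in the synaptic values was not tested.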

How the data were processed

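RNA from the cortex and hippocampus of 8 mice was sequenced, 1 library per animal, from stranded total RNA libraries per the labels' protocols. The authors deposited raw counts per gene, made with TopHat2 version 2.1.0 on mm10 per the submitters' processing notes, where CASAVA, R version 3.4.1 and DESeq2 are listed too. Which gene counter, annotation release and strand setting they used is given in none of the sources used here. The authors also deposited RPKM values, scaled to the summed counts as read from the values, which were used for levels between genes and 1 alternative.

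Genes were kept by filterByExpr (minimum count 10, minimum total 15; 20987 of 43346 genes), scaled by TMM and tested with edgeR version 4.0.16 (robust quasi-likelihood test, sex and group in the model, R version 4.3.3), with Benjamini-Hochberg adjustment over all tested genes at 0.05. A sex by group term tested the difference between sexes. Alternatives were median-of-ratios scaling, scaling to 18 pan-neuronal markers, no filter, a mean of at least 1 CPM, DESeq2 version 1.42.0, limma version 3.58.1 (voom, and trend on log2(RPKM + 0.1)), no sex covariate and leaving out each library. Leaving out GFP 3 with GFP-GR100 4, and adding the Yam1 share to the model, were chosen after seeing the data. The group tests of edgeR, DESeq2 and limma-voom were first tried on simulated counts. CPM are TMM-scaled and libraries are listed in the order 1 to 4. Total counts are given above, and libraries of the same group differed by more than sampling noise in every pair (chi-square per degree of freedom at least 16.7).

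The members and lists were chosen with earlier results of these data known. In each role the member with the smallest p and the one with the highest RPKM are given in full, and from each other list up to 3 called genes or the 1 with the smallest p. Slc17a6, Vamp1, Syt2, Nlgn1, Bsn, the long Pclo entry, Shank1 and Syp were added after their values were seen. Replicate numbers follow accession order and pair no animals. Of the striatum list 9 of 10 symbols were found.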

Additional observations from a re-analysis of the deposited data

Results flagged for a closer look

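In 104 groups of 4 libraries tested for a value far from the other 3 (Dixon's test), 5 passed the limit. Chance gives about 1 in 20, a share close to the one found. Of these 5, 4 came from GFP-GR100 4. In that library Slc17a6 was at 64.6 CPM against 22.0 to 25.4 CPM in the other GFP-GR100 libraries, and Vamp1 was at 202 CPM against 112 to 117 CPM. Stx1a was at 174 CPM there against 240 to 247 CPM, and Nlgn1 was at 46.7 CPM against 57.4 to 59.0 CPM. The remaining one was Bsn in GFP-GR100 2, at 501 CPM against 309 to 326 CPM in the other 3.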

How the results depend on the processing

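No paired analysis was possible because replicate numbers follow accession order and the labels tie no animals across groups. Scaling to pan-neuronal markers gave a presynaptic median log2 fold change of 0.0315, and turned Camk2a (0.0808), Camk2b (0.0800), Dlg4 (0.0075), Nlgn1 (0.0189), Rims1 (0.0277), Slc17a6 (0.0888), Slc17a7 (0.0177) and Syt2 (0.0492) positive; that scaling by itself moved the median of all genes by 0.12. With no filter 1 entry was called higher (Bsn), and the product of sex and group called 6 entries (4.22% of all genes), against 2 with DESeq2. Limma-trend on log2(RPKM + 0.1) gave Camk2a 0.019 and Camk2b 0.022, and leaving sex out of the model gave Slc17a6 0.0187. Without GFP 3 and GFP-GR100 4, 1 entry was called lower (Slc17a6), and Camk2a (0.0675), Camk2b (0.0485), Dlg4 (0.066) and Slc17a7 (0.0935) were positive. The cause of the turns under other settings than that scaling was not tested.

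Leaving out each library in turn, entries called higher numbered 0 to 1 and lower 0 to 2. The presynaptic median ran from -0.105 to -0.0281, the postsynaptic from -0.1033 to -0.0003 and their difference from -0.0278 to 0.016. For the sex by group term, leaving out a library leaves 1 animal of a sex in a group. The calls given above without GFP 4 or without GFP-GR100 3 are therefore not read as a sex difference, and no others are given. The weight difference ran from -43.99 to -38.48 mg (exact permutation p = 0.0571, the smallest that 3 against 4 can give). The ranges of named genes that changed sign were -0.1247 to 0.0296 (Camk2a), -0.0954 to 0.0326 (Camk2b), -0.0446 to 0.1743 (Dlgap3), -0.2019 to 0.0268 (Nlgn1), -0.1609 to 0.0051 (Rims1), -0.4967 to 0.1203 (Slc17a6), -0.1746 to 0.0522 (Slc17a7) and -0.336 to 0.036 (Syt2). Of 324 alternative values of 18 named genes, 288 kept direction and side of the threshold, 33 changed direction and 3 became called. Bsn, the long Pclo entry, Shank1 and Syp are not among these 18. Of them, Bsn was called higher with no filter and without GFP-GR100 1. The long Pclo entry was at -0.10 without GFP 3 and GFP-GR100 4. Leaving the adhesion genes out of both sides gave a difference between sides of -0.0073, and leaving out Syt4, Dlg1, Camk2a and Camk2b gave 0.0014. The lowest library value of any entry, 10.9 CPM, lay above the 0.0455 CPM that 3 counts give at the lowest depth.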
